A study of Mus musculus with 2 samples.

Results

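Interferon-stimulated genes were followed in white fat of obese mice given vehicle or entacapone. The set held 34 genes chosen by name as interferon-stimulated effectors and regulators, from Isg15 and the Ifit genes to Irf7 and Stat2. The choice was made with earlier results of these data known. All 34 were found by Ensembl identifier among the 37315 genes of both count tables. All mice were male C57BL/6 animals of 23 weeks, made obese by a high-fat diet. Inguinal (subcutaneous) white adipose tissue was taken after treatment with vehicle in the first group and with entacapone in the second. Entacapone is an inhibitor of catechol-O-methyltransferase given in Parkinson disease that also inhibits the RNA demethylase FTO. Dose, duration and mice per library were not given in the sources used here. Each group held 1 library, so the data hold no replicate error and no significance test. Every difference below is between these 2 libraries, not between the treatments.

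Interferons are secreted alarm proteins of antiviral defence. Type I interferons bind the receptor IFNAR, whose kinases JAK1 and TYK2 act on STAT proteins, STAT2 among them. With IRF9 these form the complex ISGF3, which binds the interferon-stimulated response element (ISRE) in target promoters. Interferon gamma acts through its own receptor and on promoters that hold the gamma-activated site (GAS). The induced proteins detect foreign RNA and DNA, block translation and viral growth, and feed back on the pathway itself. In obese fat, macrophages, endothelial cells and adipocytes can all carry this program.

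The 34 genes took 0.0846% of the 13620056 vehicle reads (11522 reads) and 0.0741% of the 12979673 entacapone reads (9621 reads). Adipocyte markers were abundant in both, for example Adipoq (adiponectin) at 2867 CPM with vehicle and 3118 CPM with entacapone. CPM is the read count scaled to library size. The libraries also differed in markers of other tissues. All 8 hepatocyte markers were at least 2-fold lower with entacapone (summed 344 CPM with vehicle and 81.7 CPM with entacapone). Of 8 epithelial markers, 6 were at least 2-fold higher, and of 8 skeletal muscle markers 3 were. Among all genes averaging 1 CPM or more, 3.5% were at least 2-fold lower and 1.66% at least 2-fold higher beyond counting error. In bulk tissue, fewer cells of a type and less RNA per cell cannot be told apart. Where the transcripts of these other tissues came from was not tested.

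Promoter sequences of 6 genes are shown, because interferon signals act through short elements near the starts of such genes: 3 Ifit genes that were at least 1.5-fold lower with entacapone, and Isg15, Gbp2 and Irf1, which differed by less. Start-site windows from RefSeq (GRCm38.p6, 250 bases before to 50 after the start) were matched for 25 of the 34 genes. Dhx58, Mx1, Mx2, Oas2, Parp9, Parp14, Rtp4, Usp18 and Zbp1 were not matched. A pair of short cores was searched on both strands. The ISRE core was GAAA, any 2 bases and GAAA, and the GAS core was TTC, any 3 bases and GAA, a pattern that matches on both strands at once. In Bst2 the matches of both cores overlap. The sequences run 5′ to 3′ on the gene's strand and end just before the start site. Capitals mark the ISRE core, which reads TTTC, 2 bases and TTTC where it lies on the opposite strand, and in Irf1 the GAS core.
Ifit1, chr19:34640759-34640888 (plus strand): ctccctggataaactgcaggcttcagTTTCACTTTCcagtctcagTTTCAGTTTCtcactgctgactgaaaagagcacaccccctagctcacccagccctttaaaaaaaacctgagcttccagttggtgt
Ifit3, chr19:34583349-34583528 (plus strand): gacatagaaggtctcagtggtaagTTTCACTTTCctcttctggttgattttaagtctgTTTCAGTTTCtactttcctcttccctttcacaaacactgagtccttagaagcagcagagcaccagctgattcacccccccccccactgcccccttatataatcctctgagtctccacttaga
Ifit3b, chr19:34607745-34607956 (plus strand): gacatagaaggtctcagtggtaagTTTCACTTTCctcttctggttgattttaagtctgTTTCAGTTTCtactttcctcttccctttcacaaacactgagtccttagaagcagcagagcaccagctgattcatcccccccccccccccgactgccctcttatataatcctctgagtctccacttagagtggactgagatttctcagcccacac
Isg15, chr4:156200819-156200948 (minus strand): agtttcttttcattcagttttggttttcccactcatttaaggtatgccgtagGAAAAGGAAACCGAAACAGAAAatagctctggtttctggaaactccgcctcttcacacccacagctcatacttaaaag
Gbp2, chr3:142620533-142620662 (plus strand): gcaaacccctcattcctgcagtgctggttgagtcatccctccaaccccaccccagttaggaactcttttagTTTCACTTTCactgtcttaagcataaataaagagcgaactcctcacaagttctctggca
Irf1, chr11:53769884-53770013 (plus strand): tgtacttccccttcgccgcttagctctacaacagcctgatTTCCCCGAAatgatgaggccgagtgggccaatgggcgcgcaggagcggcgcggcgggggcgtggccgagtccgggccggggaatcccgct

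Ifit1, Ifit3 and Ifit3b each hold 2 ISRE cores upstream of the start. The upstream stretches shown for Ifit3 and Ifit3b are identical over their first 131 bases, cores included. Isg15 holds 3 overlapping cores in a row. An ISRE core was found for 14 of the 25 genes, against 3.99% of the 27025 genes in the RefSeq table. For the GAS core the counts were 6 of 25 genes and 9.55% of all genes. A match is a description of these letters, not a shown binding site.

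**Figure D1:**
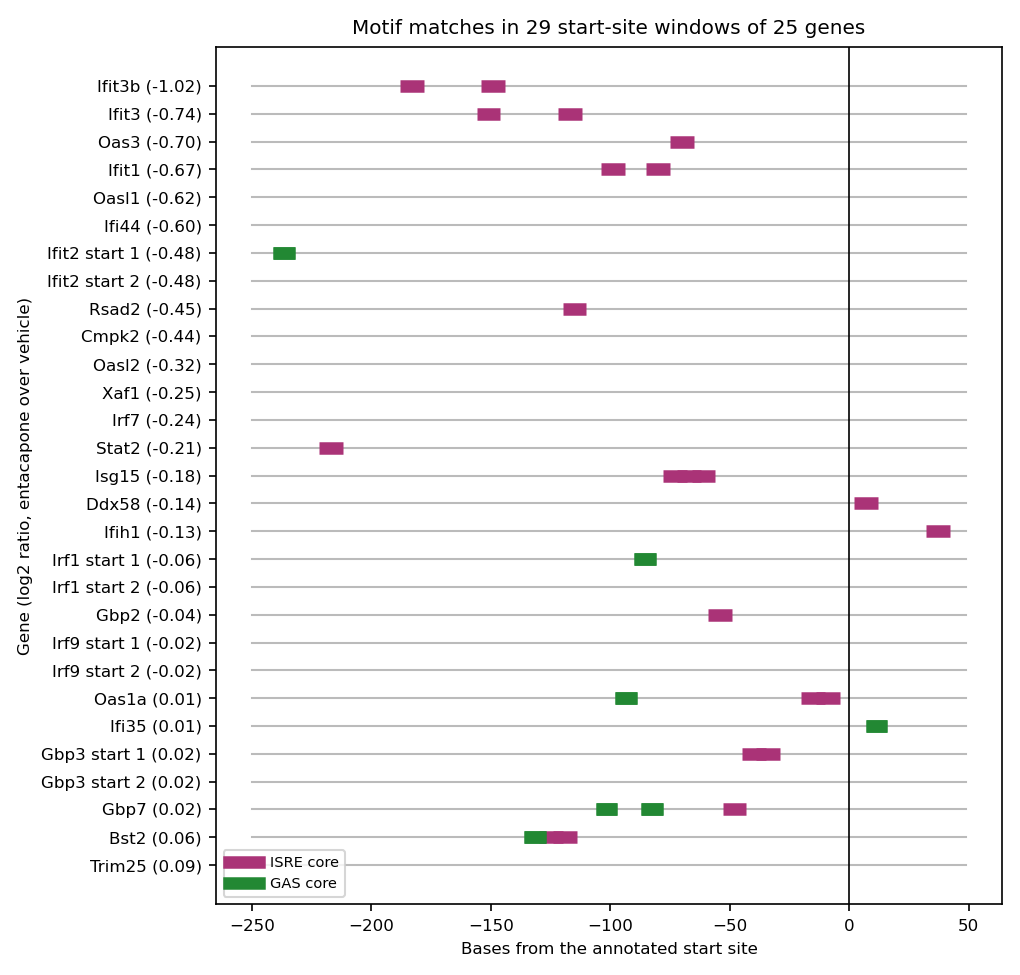
Matches to the ISRE core (purple) and GAS core (green) in 29 start-site windows of 25 genes, by distance in bases from the annotated start. Genes are ordered by their log2 ratio of entacapone over vehicle, given in brackets, and ISRE matches lie among both the lowest and the highest genes.

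As a set, the interferon-stimulated genes were slightly lower in the entacapone library, and the largest differences lay in a few antiviral effectors. Of the 34 genes, 28 had a ratio below 1 and 6 a ratio above 1. Among the 13361 genes averaging 1 CPM or more, 6586 had a ratio below 1. Of the 6 members above 1, 4 (Gbp3, Gbp7, Ifi35 and Oas1a) changed sign under another scaling. Ratios are entacapone over vehicle, each with an exact 95% interval that covers counting error only. A gene was called where it differed at least 1.5-fold and its interval left out equality. By this rule 6 genes were lower (17.6% of the set), namely Ifit1, Ifit3, Ifit3b, Oasl1, Mx1 and Rtp4, and 0 were higher. Across all 13361 genes averaging 1 CPM or more, 7.9% were called lower and 4.16% higher. Because the set was chosen with earlier results of these data known, its larger share called lower is a description only. The set's median log2 ratio was -0.17 (0.5 CPM added to both libraries), or 1.13-fold lower, beside 0.0040 over all genes compared.

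All 34 genes passed the minimum of 1 CPM. Their mean levels ran from 1.86 CPM (Ifi44) to 89.3 CPM (Gbp2). Calls were more frequent among low genes, so the set was also read by level. Of the 12 genes under 10 CPM, 4 were called lower and 0 higher, beside 15.3% and 7.66% of all genes at that level. Of the 22 genes from 10 to under 100 CPM, 2 were called lower and 0 higher, beside 4.86% and 2.5%. With the fold limit dropped, 14 of 34 (41.2%) were lower beyond counting error and 0 higher, beside 21.1% and 20.2% of all genes. With a 2-fold limit, Mx1 and Ifit3b were lower (2 of 34) and 0 were higher, beside 3.5% and 1.66% of all genes. With the 1.5-fold limit and no interval, 8 were lower and 0 higher, beside 9.5% and 5.31%.

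**Figure D2:**
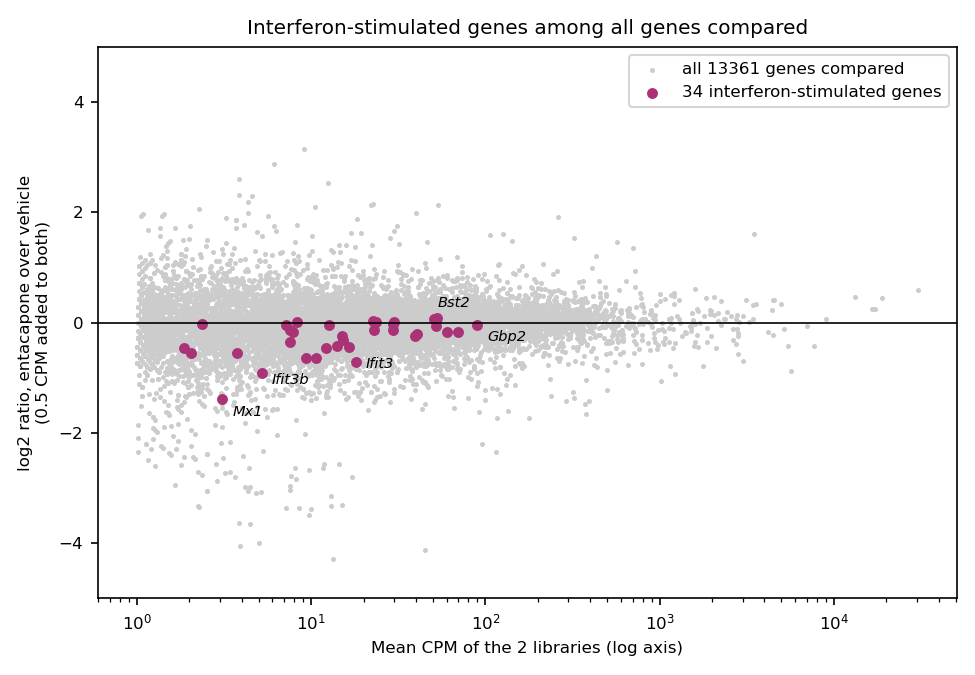
Mean CPM (log axis) against the log2 ratio of entacapone over vehicle, with 0.5 CPM added to both libraries. The 13361 genes compared are grey and the 34 interferon-stimulated genes purple; most purple points lie between 0 and -0.72, with Mx1 lowest at -1.39.

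The IFIT proteins bind viral RNA and hold back its translation, and all 4 of their genes in the set were lower. Ifit3 (chromosome 19, 34583531 to 34588731, GRCm38) had 311 reads or 22.5 CPM with vehicle and 173 reads or 13.5 CPM with entacapone, a log2 ratio of -0.74 (-1.01 to -0.46). Ifit1 (34640871 to 34650009 of the same chromosome) stood at 11.4 CPM with vehicle and 7.19 CPM with entacapone, a log2 ratio of -0.67 (-1.06 to -0.29). Ifit3b, a close copy of Ifit3, was at 6.95 and 3.44 CPM, a log2 ratio of -1.02 (-1.56 to -0.49). The counting intervals of these 3 ratios all lay below 0. Ifit2 was also lower beyond counting error, at 14.2 CPM with vehicle and 10.2 CPM with entacapone, but by 1.40-fold and so not called. Isg15, a ubiquitin-like protein that is attached to other proteins during infection, had 8.33 and 7.34 CPM, and its interval held equality (log2 -0.18, -0.59 to 0.22). Summed over the 5 genes of this group, the level was 63.4 CPM with vehicle and 41.6 CPM with entacapone.

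Reads of Ifit3 and Ifit3b are hard to assign. Of the distinct windows of 101 bases (the read length) in the Ifit3 transcripts, 31.3% occur unchanged in another gene, most often Ifit3b, and 27.1% of the Ifit3b windows occur in another gene. The counting of such reads was not given in the sources used here, so the split between these 2 genes is uncertain. Ifit2 shared 0 windows with another gene and Ifit1 3.21%. In the same cluster, the less studied relative Ifit1bl1 had 11 reads with vehicle and 16 with entacapone. Ifit1bl2 had 7 and 10 reads. Neither was resolved at this depth.

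**Figure D3:**
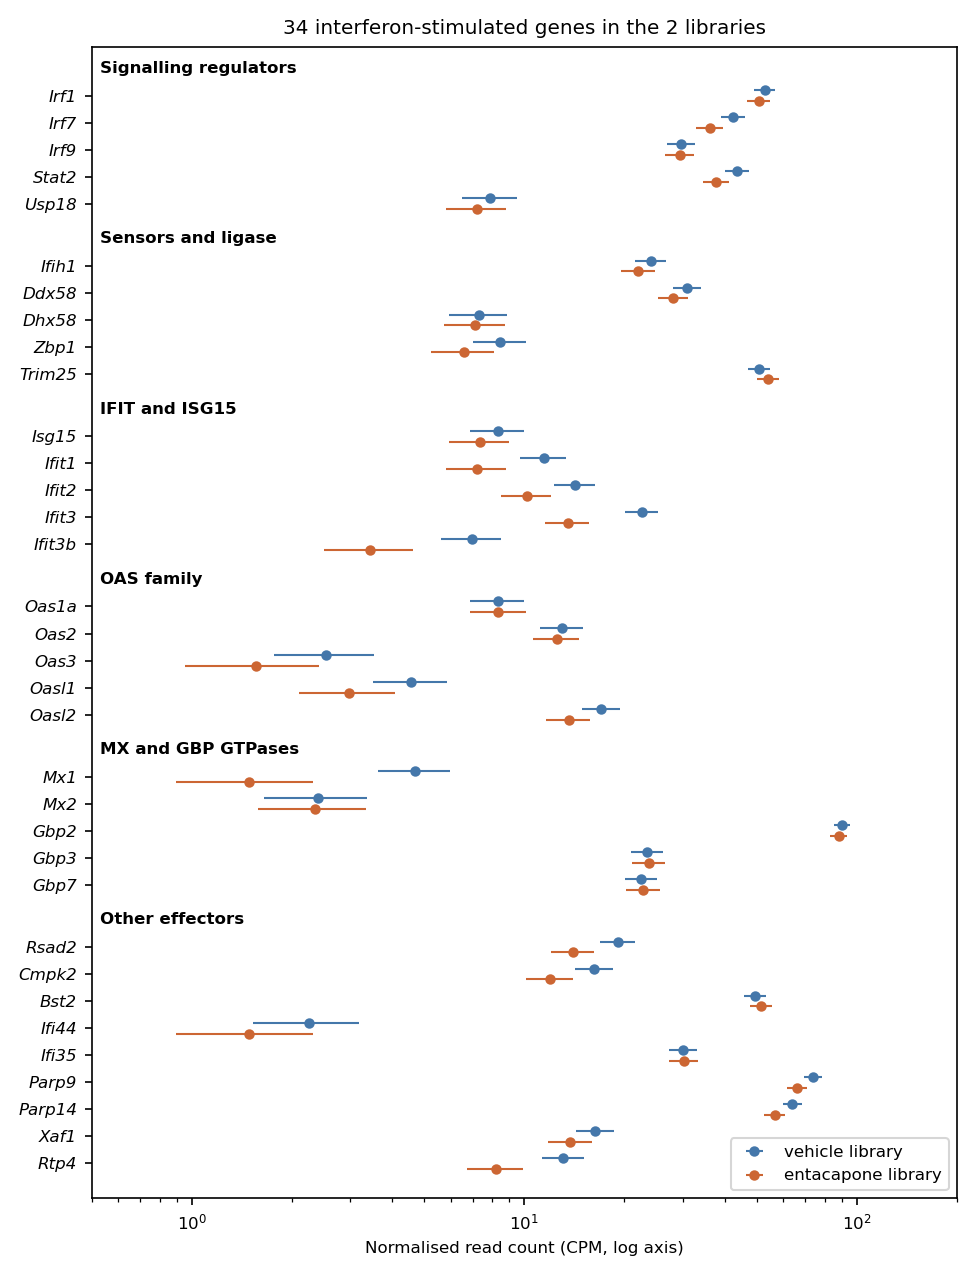
CPM (log axis) of each gene in the vehicle (blue) and entacapone (orange) library, grouped by role; bars are exact 95% Poisson intervals for counting error. The points of Ifit1, Ifit3, Ifit3b, Mx1 and Rtp4 stand apart, while those of Irf1, Irf9, Gbp2, Gbp3 and Ifi35 lie nearly on each other.

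MX proteins are dynamin-like GTPases that trap viral nucleocapsids, and GBPs are GTPases that coat vacuoles and bacteria. Mx1 (chromosome 16, 97447035 to 97462907) showed the largest difference of the set. It had 65 reads or 4.71 CPM with vehicle and 19 reads or 1.48 CPM with entacapone. That is 3.17-fold lower, with a log2 ratio of -1.66 (-2.48 to -0.91). C57BL/6 mice carry a defective Mx1 allele that gives no working protein. Its neighbour Mx2, annotated as a polymorphic pseudogene in this strain, had 33 and 30 reads (log2 -0.03, -0.79 to 0.73). At 33 vehicle reads, only a difference of 1.91-fold or more could have been resolved there.

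The 3 GBP genes of the set, strong targets of interferon gamma, lay within counting error. Gbp2 (chromosome 3, 142620602 to 142638008) was the most highly counted gene of the set, with 1249 reads or 90.4 CPM with vehicle and 1128 reads or 88.1 CPM with entacapone. Its log2 ratio of -0.04 (-0.15 to 0.08) holds equality and leaves out a 1.5-fold difference either way. Gbp3 was at 23.4 CPM with vehicle and 23.7 CPM with entacapone, and Gbp7 at 22.4 and 22.8 CPM. The sign of both ratios depended on the scaling. Another annotated gene, Gm43802, overlaps 11.35% of the Gbp7 exon length, and 9.98% of the Gbp7 windows of 101 bases occur in another gene. Of 5 other measured Gbp genes, 0 were called lower and 1 higher, beside 7.9% and 4.16% of all genes. These 5 genes are too few to differ from these shares. Gbp8 was 1.64-fold lower, but on 23 reads with vehicle and 13 with entacapone its interval held equality. Gbp9 was lower beyond counting error (23.9 CPM with vehicle, 16.0 CPM with entacapone) but under 1.5-fold. Its annotated span overlaps those of Gbp4 and Gbp8, so its count is uncertain. Gbp11, a polymorphic pseudogene, was called higher on 46 and 70 reads.

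OAS enzymes make oligoadenylates that activate RNase L, and the OAS-like proteins share their fold. Oasl1, which restrains the translation of Irf7, was called lower by a narrow margin, with 63 reads or 4.56 CPM with vehicle and 38 reads or 2.97 CPM with entacapone (log2 -0.62, -1.24 to -0.02). Its neighbour Oasl2 was at 17.0 and 13.6 CPM, lower beyond counting error but only by 1.25-fold. Oas3 had a ratio of similar size (1.62-fold lower), but on 35 and 20 reads its interval held equality. Oas2, at 13.0 CPM with vehicle and 12.5 CPM with entacapone, and Oas1a, at 8.33 and 8.36 CPM, showed no difference beyond counting error. For Oas1a, 40.6% of the windows of 101 bases are shared with another gene, mostly Oas1g, which itself had 23 reads in each library. The other measured relatives, Oas1b and Oas1c, also lay within counting error.

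**Figure D4:**
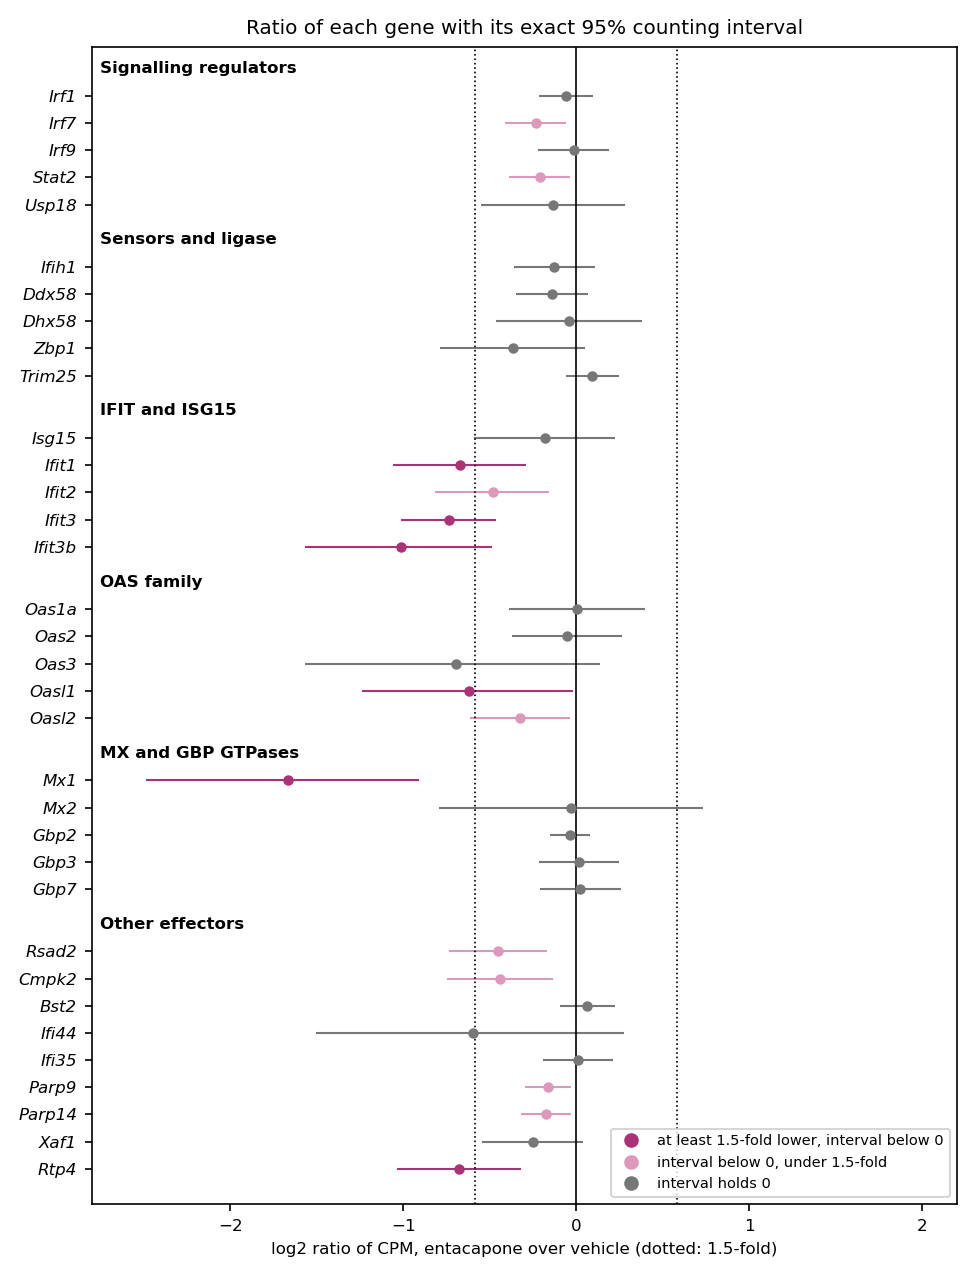
Log2 ratio of entacapone over vehicle for each of the 34 genes with its exact 95% counting interval, grouped by role; dotted lines mark 1.5-fold. The 6 genes called lower (dark purple) lie in the IFIT, OAS, MX and other effector groups. No gene among the 5 regulators or 5 sensors was called, beside 7.9% of all genes called lower.

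The regulators of the pathway differed little. Irf7, the factor that amplifies type I interferon production, was at 42.5 CPM with vehicle and 36.1 CPM with entacapone (log2 -0.24, -0.41 to -0.06). Stat2, the ISGF3 subunit that supplies the activation domain, was at 43.7 and 37.7 CPM (log2 -0.21, -0.39 to -0.03). Both were lower beyond counting error, by 1.18-fold and 1.16-fold. Irf9, the DNA-binding subunit of ISGF3, stood at 29.6 CPM with vehicle and 29.3 CPM with entacapone. Irf1, a factor induced by interferon gamma, was at 52.8 and 50.7 CPM. Usp18, which removes ISG15 from proteins and blocks IFNAR signalling, had 7.89 and 7.19 CPM. Irf1, Irf9 and Usp18 were within counting error. Of the 5 regulators 2 were lower beyond counting error, beside 21.1% of all genes. None was called, beside 7.9% of all genes called lower and 4.16% higher, and 5 genes are too few to differ from these shares.

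Of the sensors and their ligase, 0 of 5 were called and 0 lay beyond counting error. Among all genes 7.9% were called lower and 4.16% higher, so 0 of 5 is near these shares. Ddx58, which encodes the RNA sensor RIG-I, was at 30.9 CPM with vehicle and 28.1 CPM with entacapone. Ifih1, which encodes MDA5, was at 24.0 and 22.0 CPM, and Dhx58, which encodes their regulator LGP2, at 7.31 and 7.11 CPM. Their intervals all held equality and left out a 1.5-fold decrease. Zbp1, a sensor of Z-form nucleic acids that triggers cell death, had the lowest ratio of the group, at 8.47 and 6.56 CPM (log2 -0.37, -0.79 to 0.05). Trim25, the ubiquitin ligase that helps to activate RIG-I, had the highest ratio of the whole set, at 50.7 CPM with vehicle and 54.1 CPM with entacapone (log2 0.09, -0.06 to 0.25).

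Among the other effectors, Rtp4 was called. Rtp4 encodes a receptor transporter protein with antiviral activity (chromosome 16, 23520291 to 23614222) and had 181 reads or 13.1 CPM with vehicle and 105 reads or 8.20 CPM with entacapone (log2 -0.68, -1.04 to -0.32). Its merged exons overlap those of another annotated gene, Gm45338, over 13.9% of their length. Rsad2 and Cmpk2 are neighbours on chromosome 12 whose products, viperin and a nucleotide kinase, together make an antiviral nucleotide. They were lower to a like degree: Rsad2 stood at 19.1 CPM with vehicle and 14.0 CPM with entacapone (log2 -0.45, -0.73 to -0.17). Cmpk2 stood at 16.2 and 12.0 CPM (log2 -0.44, -0.75 to -0.14). Both intervals lay below 0, and both ratios were short of the 1.5-fold limit.

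Parp9 and Parp14, ADP-ribosyltransferase family members that are themselves induced by interferon, were lower by small amounts. Parp9 was at 73.8 CPM with vehicle and 66.0 CPM with entacapone (log2 -0.16, -0.29 to -0.03), and Parp14 at 63.9 and 56.6 CPM (log2 -0.18, -0.32 to -0.03). Dtx3l, the ligase partner of Parp9 that is transcribed from the opposite strand beside it, was at 41.4 and 44.8 CPM, within counting error. Parp9 and Dtx3l exons overlap over 9.40% of the Parp9 exon length, and the library kit does not mark strand. Bst2, the tetherin that holds budding virus at the cell surface, was at 49.4 CPM with vehicle and 51.6 CPM with entacapone. Ifi35, a partner of the factor NMI, stood at 30.0 and 30.2 CPM, and 16.8% of its exon length overlaps a gene on the other strand. Neither differed beyond counting error. Xaf1, a pro-apoptotic protein, was at 16.4 and 13.8 CPM (log2 -0.25, -0.54 to 0.04). Ifi44 had 31 reads with vehicle and 19 with entacapone, a ratio of 1.51-fold lower with an interval that held equality.

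Per length of merged exons, Bst2 was the most abundant transcript of the set, at 54.7 CPM per kb with vehicle and 57.2 CPM per kb with entacapone. Gbp2 (35.9 and 35.0 CPM per kb), Ifi35, Parp9 and Irf1 followed in the same order in both libraries. None of these 5 was called, beside 7.9% of all genes called lower and 4.16% higher, so 0 of 5 is near these shares. On the same per-length scale, Ifit3 was at rank 6 of 34 with vehicle and rank 9 with entacapone. Oas3 was lowest in both libraries, at 0.358 and 0.221 CPM per kb. The genes called lower all ranked below the 5 most abundant per length in both libraries, which is a description only.

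Genes with and without an ISRE core in the window had overlapping ratios. The median log2 ratio (0.5 CPM added) was -0.15 for the 14 genes with the core, of which 3 were called lower. It was -0.24 for the 11 matched genes without it, of which 1 was called lower. Gbp2 and Isg15, whose cores are shown above, were not called, whereas Ifit1, Ifit3 and Ifit3b were. The 6 genes with a GAS core (Bst2, Gbp7, Ifi35, Ifit2, Irf1 and Oas1a) had a median of 0.0073, and 0 were called. Among all genes 7.9% were called lower and 4.16% higher. Mx1 and Rtp4, both called lower, had no matched window and are in none of these groups. These are descriptions of small groups.

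Transcripts of the interferons themselves were nearly undetected. Of 11 ligand genes looked for, 9 had 0 reads in both libraries, among them Ifnb1, Ifna4 and Ifnl3; a count of 0 allows up to 0.217 CPM with vehicle and 0.234 CPM with entacapone (3 reads). Ifng had 3 reads in each library and Ifnz 1 and 2 reads, so no ligand could be compared at this depth.

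Receptors and signalling genes went in both directions. Of 14 measured receptors, kinases, STATs and brakes, 0 were called, 5 were lower and 3 higher beyond counting error (21.1% and 20.2% of all genes), and the median log2 ratio was -0.09. Ptpn6, a phosphatase that damps the kinases, was at 20.0 CPM with vehicle and 14.9 CPM with entacapone (log2 -0.42, -0.69 to -0.15). Ifnar2 was at 70.3 and 58.8 CPM, while Ifnar1, the other receptor chain, stood at 55.4 and 54.9 CPM. On the higher side lay Ifngr1, the ligand-binding chain of the interferon gamma receptor, at 411 CPM with vehicle and 575 CPM with entacapone (log2 0.48, 0.43 to 0.53), and Stat3 (log2 0.45).

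Of 5 other measured interferon regulatory factors, 1 was called lower and 1 higher, beside 7.9% and 4.16% of all genes. Irf5, a factor of macrophages and B cells, was called lower at 25.5 CPM with vehicle and 15.0 CPM with entacapone (log2 -0.76, -1.03 to -0.51), and Irf8, of myeloid cells, was at 34.5 and 23.9 CPM. Irf2, a repressor of interferon targets, was called higher at 38.6 and 61.6 CPM (log2 0.68, 0.52 to 0.84), and Irf3 was at 49.7 and 61.0 CPM. Of 15 genes of nucleic acid sensing upstream of interferon, 3 were called lower and 0 higher, with the same shares of all genes (median log2 ratio -0.17). These were the endosomal receptors Tlr8 (log2 -1.01) and Tlr9 (log2 -1.01) and the DNA sensor cGAS, listed as Mb21d1 (log2 -0.93, -1.86 to -0.06). The highest of that list were Tlr4 (log2 0.31) and Myd88 (log2 0.19).

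In a wider list of 46 interferon-responsive genes outside the set, 2 were called lower (4.35%, beside 7.9% of all genes) and 1 higher, and the median log2 ratio was -0.07. Ddx60, a helicase that aids RIG-I, was lower at 6.81 CPM with vehicle and 3.59 CPM with entacapone (log2 -0.92, -1.46 to -0.40), as was Trim34a on 68 and 42 reads. Ifi205 was higher at 16.1 and 26.9 CPM. Gbp9 (log2 -0.58) was also among the lowest, and Isg20, an exonuclease (log2 0.43), among the highest. Without the fold limit, 10 of the 46 were lower and 7 higher beyond counting error, beside 21.1% and 20.2% of all genes.

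**Figure D5:**
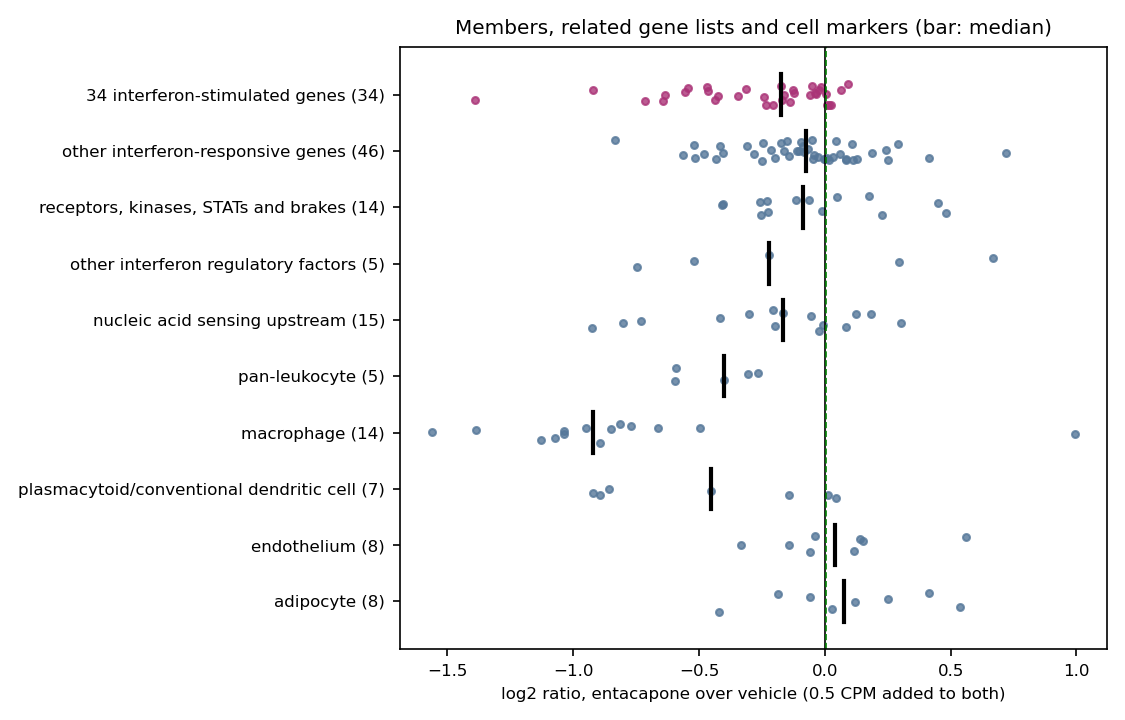
Log2 ratio of entacapone over vehicle (0.5 CPM added) for the 34 genes, related gene lists and cell markers, with each point a gene, the black bar the list's median and the dashed line the median of all genes. The interferon-stimulated genes have a median of -0.17, macrophage markers -0.92 and endothelial markers 0.04.

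Macrophage and pan-leukocyte markers were lower in the entacapone library, while most lymphocyte markers were not. The counts called below stand beside 7.9% of all genes called lower and 4.16% higher. Counts of ratios below 1 stand beside 6586 of the 13361 genes compared. In such short lists, 0 or 1 called gene is near these shares. Of 14 macrophage markers, 12 were called lower and 1 higher, with none at 0, and their summed level was 1765 CPM with vehicle and 948 CPM with entacapone (median log2 ratio -0.92). Adgre1 and Trem2, which mark tissue and lipid-associated macrophages, were at log2 -1.58 and -1.44; Mertk was the higher one. All 5 pan-leukocyte markers had ratios below 1, and 2 were called, Ptprc (CD45) at 38.6 and 25.4 CPM and Laptm5 at 111 and 73.9 CPM. Their summed level was 259 CPM with vehicle and 188 CPM with entacapone. Of 7 measured dendritic cell markers 3 were called lower, while Siglech, which marks the plasmacytoid cells that make most type I interferon, had 5 and 8 reads. Of 10 T and NK cell markers 2 had ratios below 1, with Nkg7 called lower and Lck higher, and their median log2 ratio was 0.40 on a summed level of 23.5 CPM with vehicle and 29.1 CPM with entacapone. Of 6 B cell markers only Ighm had a ratio below 1 and 0 were called (median log2 ratio 0.20), and the summed level, most of it Ighm, was 876 CPM with vehicle and 614 CPM with entacapone. All 8 fibroblast and progenitor markers had ratios below 1, and 4 were called lower, among them Pi16 (log2 -1.30) and Dpp4 (log2 -1.40). Their summed level was 6145 CPM with vehicle and 4048 CPM with entacapone (median log2 ratio -0.58). The 8 endothelial markers (1028 CPM summed with vehicle and 1052 CPM with entacapone) and the 8 adipocyte markers held no called gene. The part of macrophages and other leukocytes, and of fibroblasts and progenitors, in the lower interferon-stimulated genes was not tested. Nor was the part of the hepatocyte transcripts, higher with vehicle, or of the epithelial and muscle transcripts, higher with entacapone.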

How the data were processed

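The authors deposited a headerless table of raw counts by Ensembl gene for each library. The submitters' processing notes name TopHat2 2.1.1, HTSeq 0.6.0 and mm10; annotation release, counting mode and handling of multi-mapping reads were not given in the sources used here. Per the labels' protocols, mRNA was purified on beads and libraries were made with a TruSeq kit. Symbols and positions came from GENCODE M21 (GRCm38, the same assembly as mm10), which matched 35449 of 37315 genes.

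CPM were computed on effective library sizes from edgeR 4.0.16 (TMM factors 1.01 and 0.986). With 1 library per group no test was possible. Ratios carry exact 95% intervals from the binomial (Clopper-Pearson) limits on the share of a gene's reads found with entacapone, computed with scipy 1.17.1; these cover counting error only, and the reads have no molecular identifiers. Ratios and medians of lists were taken on log2 values with 0.5 CPM added; single genes have nothing added. Genes averaging 1 CPM or more were compared. The interval and call steps were run on simulated counts that held counting error only. That run had no variation between animals, so it cannot show how firm the calls are.

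All 34 members are reported. From each other list, called genes (up to 4) and the 2 highest and 2 lowest were eligible to be named. Other genes, such as the family relatives, were chosen after their values were seen. Gbp5 and Gbp6 matched no gene, and Mb21d1 was matched as Cgas. The members and lists were chosen with earlier results of these data known. Alternatives were scaling by total counts, by upper quartile and by DESeq2 1.42.0 size factors, other limits on level, fold and interval, other pseudocounts, the mean, and Ifit3 and Ifit3b counted as 1 gene. A further gene of the signalling list is not reported here.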

Additional observations from a re-analysis of the deposited data

How the results depend on the processing

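The same 6 genes were lower, and 0 higher, under TMM, total counts, upper-quartile scaling and DESeq2 size factors. Each other scaling shifts all 34 log2 ratios by the same amount, so it cannot tell how firm a single gene is. No shift reached past a counting interval, but Gbp3, Gbp7, Ifi35 and Oas1a, all near equality, changed sign under at least 1 scaling. Without a minimum level the count stayed at 6, and with a minimum of 5 CPM it was 4 of 29 genes. The count of lower genes was 2 with a 2-fold limit, 14 with the interval alone and 8 with the 1.5-fold limit alone; 0 were higher under each. Restricted to the 27 genes with under 5% of windows shared with another gene, a choice made after the data were seen, 3 were lower. The 7 genes left out include Ifit3, Ifit3b and Rtp4, so these calls rest on genes that share sequence with others. Of all genes compared, 7.9% were called lower. The median log2 ratio was -0.21 with total counts and -0.28 as a mean in place of a median, and lay between -0.19 and -0.16 under the other alternatives run. No paired analysis was possible because each group held 1 library. Depth limited the lowest genes: at their vehicle counts a 1.5-fold decrease could not be resolved for Oas3, Oasl1, Mx1, Mx2 and Ifi44.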
